A study of Mus musculus with 12 samples.

Results

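The 10 genes described here mark oligodendrocyte precursors and their immediate progeny, and they were followed in the transcriptome of the mouse medial prefrontal cortex (PFC). They are the receptor genes Pdgfra and Gpr17, the proteoglycan genes Cspg4, Vcan, Bcan, Cspg5 and Ptprz1, the secreted ligand gene Bmp4, the sialidase gene Neu4, and Lhfpl3, which encodes a membrane protein of the LHFPL family. The rule that chose them names the genes and uses no measured value, but the genes were chosen with earlier results of these data known. Of the 41388 genes in the count table, 9 were matched to the 10 names. No row was matched to Lhfpl3, so it was not analysed here.

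All libraries came from Swiss Webster mice aged 10 weeks, and from PFC tissue dissected by hand. The sequenced mice were male according to the study. The groups were conventionally colonized mice (CON), germ-free mice (GF), and mice born germ-free that were colonized from postnatal day 21, at weaning (exGF), with 4 libraries each. Each library held polyA RNA pooled from 2 to 3 animals, so n counts pools and the spread is a spread between pools, and single animals cannot be told apart. Of the columns with counts, 4 carry the name GFR and were read as exGF, since only exGF samples were left for them, and the numbers GFR1 to GFR4 were tied to no particular sample.

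Oligodendrocyte precursors are the dividing glia that persist in the adult cortex. Platelet-derived growth factor, acting through PDGFRA, keeps them dividing, and they carry the chondroitin sulfate proteoglycan NG2, the product of Cspg4. A precursor that commits to differentiation loses PDGFRA and NG2, passes through a short stage with GPR17, BMP4 and NEU4, and then makes myelin proteins such as MBP and MOG. Several of the genes are shared with other cells: Ptprz1, Bcan and Cspg5 are also transcribed in astrocytes, Cspg4 in pericytes, and Pdgfra and Vcan in fibroblasts. In bulk tissue, fewer cells of a type and less RNA per cell cannot be told apart.

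The depth, as counts on genes, was 22757169 to 29134760 in the CON libraries, 13280926 to 23465074 in GF and 22702599 to 28615407 in exGF. Within a group, the mean chi-square between libraries was 9.26 to 40.2 over genes, and sampling error alone would give 1. Summed over the marker list for striatum, CON2 (409 CPM) and GFR4 (388 CPM) stood above the other 10 libraries (183 to 250 CPM), and the markers of neurons, astrocytes and microglia were present in every library. The 3 pairs of groups were tested with edgeR (quasi-likelihood), and a gene was called at a Benjamini-Hochberg adjusted p under 0.1, the threshold of the study's methods. Levels are CPM, counts scaled to library size, with sizes adjusted by TMM. Levels of different genes were compared as RPKM, that is CPM per kilobase of annotated exon, with the order by CPM given beside it, and a fold change is the log2 difference of the first-named group from the second.

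None of the 9 genes was called in any of the 3 comparisons. In GF versus CON, 2 were higher and 7 lower, with a median log2 fold change of -0.05, against 0.01 over all 15542 tested genes. In exGF versus CON, 3 were higher and 6 lower, with a median of -0.03. In exGF versus GF, 6 were higher and 3 lower, with a median of 0.04. In each comparison the groups overlapped for all 9 genes, 0 of the 9 had an unadjusted p under 0.05 by edgeR, and DESeq2 and limma-voom called 0. DESeq2 fitted to all 12 libraries gave an adjusted p for only 5 of the 9 genes in exGF versus GF.

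The number of calls was read against that over all genes. In GF versus CON, 39 of 15542 genes were called (0.251%), 8.69% had an unadjusted p under 0.05, 2.08% were higher and 2.91% lower in GF without overlap of the groups, and 48.3% were lower in GF. In exGF versus CON, 11 of 15813 genes were called (0.0696%), 5.33% had an unadjusted p under 0.05, 1.88% were higher and 1.44% lower in exGF without overlap, and 52.1% were lower in exGF. In exGF versus GF, 0 of 15569 genes were called (0%), while 1035 genes (6.65%) had an unadjusted p under 0.05, 2.18% were higher and 1.34% lower in exGF without overlap, and 51.3% were lower in exGF. By DESeq2 fitted to the 2 groups, 195 genes were called in GF versus CON, 52 in exGF versus CON and 14 in exGF versus GF. With shares of this size over all genes, 0 calls among 9 genes is near the background. The median size of the log2 fold change was 0.09 for the 9 genes in GF versus CON, against 0.11 over all genes. A p above the threshold does not show that levels are the same, and the 95% intervals give the changes that remain possible. Their bounds over the 9 genes ran from -0.63 to 0.41 in GF versus CON, from -0.51 to 0.41 in exGF versus CON and from -0.38 to 0.46 in exGF versus GF.

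**Figure D1:**
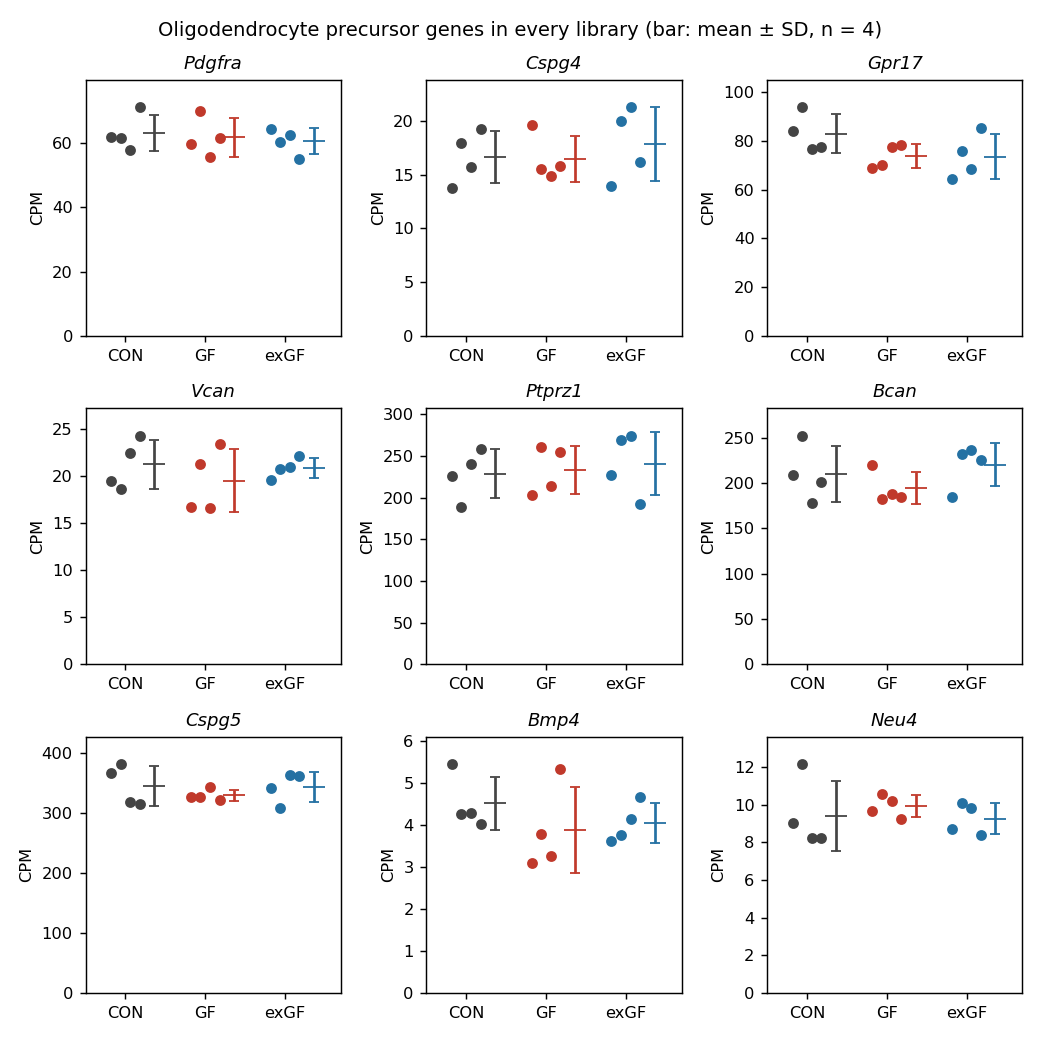
CPM (vertical axes, starting at 0) of the 9 precursor genes in the 4 CON, 4 GF and 4 exGF libraries, 1 point per library, with the mean and SD of each group as a bar at its right. For every gene the points of the 3 groups overlap.

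Pdgfra encodes the alpha receptor for platelet-derived growth factor and defines the precursor stage. The gene (ENSMUSG00000029231) lies on chromosome 5 from 75152292 to 75198215 on the plus strand of GRCm38, and a few of its exon bases are shared with the microRNA gene Mir7025 on the same strand. The base sequence just upstream of its start site is shown because Pdgfra is the gene by which these cells are usually recognized, and that of Ptprz1 because its level followed a property of the libraries described further on. Both are the 250 bases before the RefSeq start site on GRCm38.p6, read on the plus strand at chr5:75152001-75152250 and chr6:22875252-22875501. Capitals mark a match to 1 of 4 motifs.

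Pdgfra: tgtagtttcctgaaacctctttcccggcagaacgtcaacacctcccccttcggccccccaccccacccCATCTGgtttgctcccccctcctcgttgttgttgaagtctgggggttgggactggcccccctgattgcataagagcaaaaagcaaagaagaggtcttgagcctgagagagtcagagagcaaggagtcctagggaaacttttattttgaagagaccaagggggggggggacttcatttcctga
Ptprz1: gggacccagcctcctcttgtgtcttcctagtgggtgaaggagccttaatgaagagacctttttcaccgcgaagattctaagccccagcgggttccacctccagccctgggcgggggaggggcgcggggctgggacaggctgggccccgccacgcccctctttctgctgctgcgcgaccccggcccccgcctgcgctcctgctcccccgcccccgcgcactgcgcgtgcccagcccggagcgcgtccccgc

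The motifs were the SOX cores ACAAAG and ACAATG and the E-boxes CAGCTG and CAGATG, searched on both strands in windows of 300 bases. Promoter windows were present for 8 of the 10 genes, and the search covered the 7 of these that also have counts. Its single match was CAGATG in the Pdgfra window, read there as CATCTG, with its first base 182 bases before the start site. Over all 32851 promoters of the table, 18.7% held ACAAAG, 12.6% ACAATG, 16.3% CAGCTG and 17.2% CAGATG. The upstream 250 bases of Ptprz1 had a GC content of 71.6%, against 54.4% for Pdgfra.

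Pdgfra stood at 61.7, 61.5, 57.9 and 71.1 CPM in CON1 to CON4, at 59.7, 69.9, 55.7 and 61.6 CPM in GF1 to GF4, and at 64.5, 60.2, 62.4 and 55.0 CPM in GFR1 to GFR4. The highest library was from CON and the lowest from exGF, and all others lay between them with the groups interleaved. Between GF and CON the log2 fold change was -0.02 (SE 0.10, 95% interval -0.22 to 0.19, n = 4 and 4, adjusted p = 0.978 by edgeR's quasi-likelihood test). The interval reaches from a change of -14.3% to one of 13.8%. For exGF versus CON it was -0.07 (95% interval -0.27 to 0.12), and in exGF versus GF -0.04 (-0.25 to 0.16).

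Gpr17 encodes a G protein-coupled receptor that is present for a short time in committed precursors, where it holds back maturation. The gene (ENSMUSG00000052229) lies on chromosome 18 from 31942997 to 31949636 on the minus strand, and 188 of its 5195 exon bases are shared with Lims2 on the opposite strand. Pairs were counted without regard to strand, so pairs that lie wholly in those bases cannot be assigned to either gene. Gpr17 stood at 84.2, 93.9, 76.8 and 77.3 CPM in CON1 to CON4, at 68.9, 70.0, 77.7 and 78.5 CPM in GF1 to GF4, and at 64.3, 75.9, 68.6 and 85.3 CPM in GFR1 to GFR4. GF1, GF2, GFR1, GFR2 and GFR3 lay below every CON library, while GF3, GF4 and GFR4 lay inside the CON range. The mean was 83.1 ± 7.95 CPM (SD, n = 4) in CON, 73.8 ± 5.04 in GF and 73.5 ± 9.21 in exGF. GF differed from CON by a log2 fold change of -0.16 (SE 0.09, 95% interval -0.35 to 0.04, n = 4 and 4, adjusted p = 0.652 by edgeR's quasi-likelihood test). It was -0.19 in exGF versus CON (SE 0.11, 95% interval -0.42 to 0.04, n = 4 and 4, adjusted p = 0.952 by the same edgeR test). These were the smallest adjusted p values among the 9 genes in those comparisons. The 2 comparisons share the CON libraries, and between exGF and GF the log2 fold change was -0.02 (95% interval -0.23 to 0.19).

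Of the 5 proteoglycan genes, Cspg4 encodes NG2, a transmembrane proteoglycan of precursors and pericytes. The gene (ENSMUSG00000032911) lies on chromosome 9 from 56865033 to 56899870. Its level was 13.7, 17.9, 15.7 and 19.3 CPM in CON1 to CON4, 19.6, 15.5, 14.9 and 15.8 CPM in GF1 to GF4, and 13.9, 20.004, 21.3 and 16.2 CPM in GFR1 to GFR4. Low and high libraries occurred in every group, with CON1 the lowest library and GFR3 the highest. Its log2 fold change was -0.01 in GF versus CON (SE 0.13, 95% interval -0.29 to 0.27), 0.09 in exGF versus CON (-0.24 to 0.41) and 0.11 in exGF versus GF (-0.20 to 0.41).

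Vcan and Bcan encode the lecticans versican and brevican, secreted proteoglycans that bind hyaluronan. Vcan (ENSMUSG00000021614, chromosome 13 from 89655312 to 89742509) stood at 19.5, 18.7, 22.5 and 24.3 CPM in CON1 to CON4, at 16.7, 21.3, 16.6 and 23.4 CPM in GF1 to GF4, and at 19.6, 20.7, 20.9 and 22.2 CPM in GFR1 to GFR4. GF1 and GF3 lay below all other libraries, and GF2 and GF4 lay inside the CON range. For Vcan the log2 fold change was -0.11 in GF versus CON (95% interval -0.39 to 0.18), -0.04 in exGF versus CON (-0.27 to 0.19) and 0.08 in exGF versus GF (-0.18 to 0.34).

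Bcan (ENSMUSG00000004892, chromosome 3 from 87987531 to 88000230) stood at 209, 252, 178 and 201 CPM in CON1 to CON4, at 220, 183, 188 and 185 CPM in GF1 to GF4, and at 185, 232, 237 and 226 CPM in GFR1 to GFR4. In GF the libraries GF2, GF3 and GF4 were close together and GF1 stood above them. In exGF the pattern was the opposite, with GFR1 low and the other libraries above every GF library. The log2 fold change in exGF versus GF was 0.16 (SE 0.09, 95% interval -0.04 to 0.37, n = 4 and 4, adjusted p = 0.759 by edgeR's quasi-likelihood test), which was the smallest adjusted p of the 9 genes in that comparison. Without GFR1 it was 0.23 and its adjusted p was 0.278, and without GF1 it was 0.24 with an adjusted p of 0.513, both by edgeR. The log2 fold change of Bcan in GF versus CON was -0.10 (-0.33 to 0.13), and without GF1 it was -0.18 with an adjusted p of 0.575 by edgeR, while without CON2 it was -0.00031. It was 0.05 in exGF versus CON (-0.20 to 0.31).

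Cspg5, which encodes neuroglycan C, a transmembrane proteoglycan of glia and neurons, lies on chromosome 9 from 110243783 to 110262576 (ENSMUSG00000032482). Its level was 366, 381, 318 and 314 CPM in CON1 to CON4, 326, 327, 342 and 322 CPM in GF1 to GF4, and 341, 308, 362 and 360 CPM in GFR1 to GFR4. The GF libraries were the closest together, with a coefficient of variation of 2.75%, against 9.81% in CON and 7.34% in exGF, and all of them lay inside the CON range. Its log2 fold change was -0.05 in GF versus CON (SE 0.08, 95% interval -0.23 to 0.12), -0.02 in exGF versus CON (-0.22 to 0.18) and 0.04 in exGF versus GF (-0.12 to 0.21).

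Ptprz1 encodes a receptor-type tyrosine phosphatase that carries chondroitin sulfate and binds pleiotrophin. The gene (ENSMUSG00000068748) lies on chromosome 6 from 22875502 to 23052916. Its level was 226, 189, 240 and 259 CPM in CON1 to CON4, 204, 261, 214 and 255 CPM in GF1 to GF4, and 228, 269, 274 and 193 CPM in GFR1 to GFR4. The lowest levels, in CON2 and GFR4, were in the libraries with the highest striatal markers, and the part of those markers in this was not tested. The log2 fold change was 0.04 in GF versus CON (95% interval -0.19 to 0.27), 0.06 in exGF versus CON (-0.20 to 0.33) and 0.03 in exGF versus GF (-0.23 to 0.28). Without CON2 it was -0.04 in GF versus CON, and without CON2 and GFR4 it was 0.09 in exGF versus CON.

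Bmp4 encodes a secreted bone morphogenetic protein, a signal that holds precursors back from maturing and turns them towards astrocytes in culture. The gene (ENSMUSG00000021835) lies on chromosome 14 from 46383520 to 46390669, and 89 of its 2248 exon bases are shared with Gm15217 on the opposite strand. It had the lowest counts of the 9 genes, with 100 to 133 in CON, 42 to 98 in GF and 86 to 136 in exGF, and the widest intervals. Its level was 5.45, 4.27, 4.29 and 4.03 CPM in CON1 to CON4, 3.09, 3.79, 3.26 and 5.34 CPM in GF1 to GF4, and 3.61, 3.76, 4.14 and 4.66 CPM in GFR1 to GFR4. GF1, GF2 and GF3 lay below every CON library, whereas GF4 was above all CON libraries but CON1. The log2 fold change in GF versus CON was -0.20 (SE 0.20, 95% interval -0.63 to 0.23, n = 4 and 4, adjusted p = 0.820 by edgeR's quasi-likelihood test), and without GF4 it was -0.40. At this depth a change in GF as large as -35.4% or 17.1% lay inside the interval. Bmp4 had log2 fold changes of -0.17 in exGF versus CON (-0.51 to 0.18) and 0.04 in exGF versus GF (-0.38 to 0.46).

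Neu4 encodes a sialidase that removes sialic acid from glycoproteins and gangliosides. The gene (ENSMUSG00000034000) lies on chromosome 1 from 94020451 to 94028334. Its level was 9.01, 12.2, 8.24 and 8.22 CPM in CON1 to CON4, 9.65, 10.6, 10.2 and 9.27 CPM in GF1 to GF4, and 8.74, 10.1, 9.86 and 8.39 CPM in GFR1 to GFR4. All GF libraries were above CON1, CON3 and CON4 and below CON2, the library with the highest striatal markers. The log2 fold change in GF versus CON was 0.09 (SE 0.15, 95% interval -0.22 to 0.41, n = 4 and 4, adjusted p = 0.898 by edgeR's quasi-likelihood test). Without CON2 it was 0.24 with an adjusted p of 0.675 by edgeR. Neu4 had a log2 fold change of -0.03 in exGF versus CON (-0.35 to 0.29), and in exGF versus GF -0.12 (-0.37 to 0.14). Without CON2 and GFR4 the exGF versus CON value turned to 0.18.

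**Figure D2:**
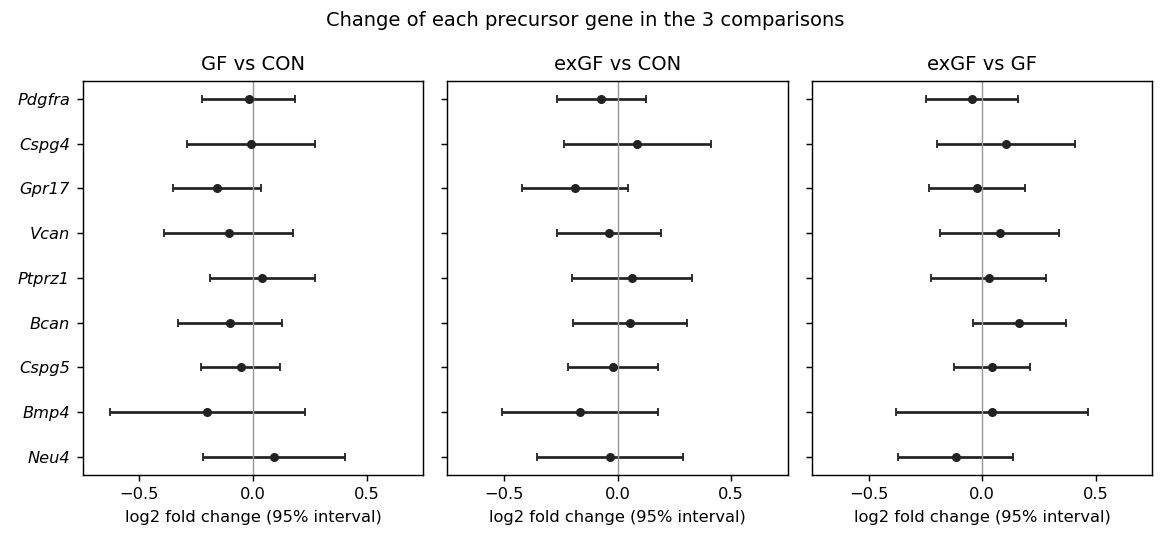
Log2 fold change (horizontal axes) of each of the 9 genes with its 95% interval in GF versus CON, exGF versus CON and exGF versus GF. Every interval holds 0, and the widest is that of Bmp4 in GF versus CON, from -0.63 to 0.23.

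The order of the levels per exon length in CON was Bcan (51.7 ± 7.70 RPKM, SD, n = 4), Cspg5 (34.2 ± 3.35), Ptprz1 (16.1 ± 2.07), Gpr17 (16.0 ± 1.53), Pdgfra (6.29 ± 0.564), Neu4 (2.03 ± 0.404), Bmp4 (2.01 ± 0.283), Vcan (1.47 ± 0.180) and Cspg4 (1.39 ± 0.205). Ptprz1 and Gpr17 overlapped in their ranges, as did Neu4 and Bmp4, and Vcan and Cspg4. All other neighbours in the order were apart in all 4 CON libraries. Bcan and Cspg5 together held most of the summed RPKM of the 9 genes, with Bcan at 36.7% to 42.9% and Cspg5 at 24.4% to 27.3% in CON. Bcan held 36.6% to 42.9% in GF and 37.9% to 42.6% in exGF. Without division by length the order was different, since in CPM Cspg5 came first, followed by Ptprz1 and then Bcan, and Bmp4 was last. The gene that defines the precursor stage, Pdgfra, was therefore in the middle of the order, and the genes at its top were those shared with astrocytes.

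**Figure D3:**
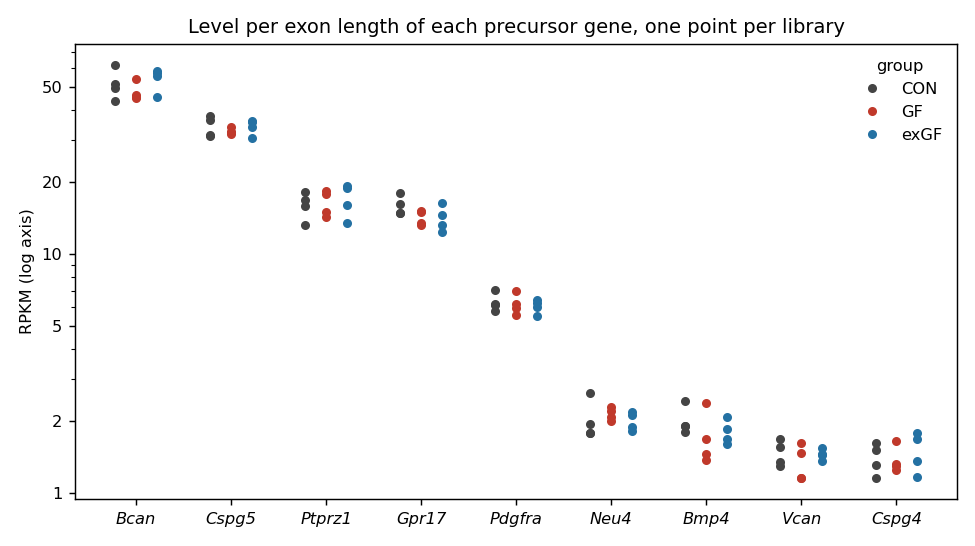
RPKM (log axis) of the 9 genes in each of the 12 libraries, in the order of their mean in CON, with the groups side by side. The levels run from 51.7 RPKM for Bcan to 1.39 RPKM for Cspg4 in CON, and for every gene the 3 groups overlap.

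The later stages of the lineage were set beside the precursor genes. Of 12 genes of mature myelin, 7 were called higher in GF than in CON (among them Mobp, Mal, Mbp, Ermn, Mog and Cldn11), all 12 had an unadjusted p under 0.05, and their median log2 fold change was 0.78. The study had picked most of these genes from these libraries as higher in GF, so their count is not independent evidence of the direction. Mobp and Mal, which encode proteins of compact myelin, had the largest changes, with log2 fold changes of 0.99 and 0.89.

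Between these stages, the list of committed and newly formed oligodendrocyte genes held 18 names, of which 15 genes were tested. Bcas1, which marks cells that have begun to make myelin, was the single call, with 77.5 CPM in CON and 156 CPM in GF (log2 fold change 1.02, adjusted p = 0.0120 by edgeR's quasi-likelihood test). Enpp6, a gene of newly formed oligodendrocytes, had a log2 fold change of 0.60 and an adjusted p of 0.426 by edgeR. Of the 15 genes, 9 were higher and 6 lower in GF, with a median of 0.08. The unadjusted p was under 0.05 for 4 of them, all higher in GF, and 3 had groups without overlap. In exGF versus CON none of the 15 was called and the largest values were those of Bcas1 (0.36) and Prom1 (0.20). By edgeR none was called in exGF versus GF either, where 3 genes had an unadjusted p under 0.05 and Bcas1 and Enpp6 had log2 fold changes of -0.65 and -0.59.

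Of 24 further genes enriched in precursors, 23 were tested in GF versus CON. By edgeR 0 were called, and 2 had an unadjusted p under 0.05, both lower in GF. The list is not confined to the precursor stage, since by the study's account Sox10, which is on it, is active throughout the lineage. The list has 13 genes higher and 10 lower in GF and a median of 0.03, against 2 higher, 7 lower and a median of -0.05 for the 9 genes. The largest log2 fold changes were those of Dll3 (-0.38, with low means of 1.90 CPM in CON and 1.43 CPM in GF) and Matn4 (-0.33, with 9.84 and 7.76 CPM). In exGF versus CON 0 were called by edgeR and 1 had an unadjusted p under 0.05, with Sapcd2 (0.34) and Nkx2-2 (-0.31) at the ends. In exGF versus GF 0 were called and 0 had an unadjusted p under 0.05, and S100a3 (0.69) and Nkx2-2 (-0.46) had the largest values. S100a3 was near the floor, with means of 0.32 CPM in GF and 0.50 CPM in exGF, and was tested in this comparison only.

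The summed level of the 9 precursor genes was 921 to 1031 CPM in CON, 923 to 961 CPM in GF and 929 to 1061 CPM in exGF. That of the committed and newly formed list was 758 to 829 CPM in CON, 857 to 1003 CPM in GF and 854 to 891 CPM in exGF. The GF and the exGF libraries were thus all above the CON libraries. In this sum genes with high levels weigh most. In CON the means were 244 CPM for Nfasc, 125 CPM for Fyn and 114 CPM for Sirt2, against 2.95 CPM for Enpp6. The part of other cell types in this sum was not tested. From CON to GF the mean of Bcas1 went from 77.5 to 156 CPM. From CON to exGF, Nfasc went from 244 to 276 CPM and Bcas1 from 77.5 to 100.5 CPM. Gene by gene the list was mixed, with 6 of the 15 tested genes lower in GF and 7 lower in exGF. The share of other gene sums with such a separation was not computed. The summed level of the 12 mature genes was 2230 to 2725 CPM in CON, 3435 to 5748 CPM in GF and 2217 to 3719 CPM in exGF. The ratio of the precursor sum to the mature sum in a library was 0.368 to 0.418 in CON, 0.161 to 0.280 in GF and 0.261 to 0.478 in exGF. GF therefore did not overlap CON in this ratio, which carries the choice of the mature genes by the study, and exGF overlapped both. The precursor sum, alone and in this ratio, was mostly Cspg5 (mean 344 CPM in CON), Ptprz1 (229 CPM) and Bcan (210 CPM). These genes are shared with astrocytes, while Pdgfra (63.0 CPM) and Cspg4 (16.6 CPM) weigh little in the sum.

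**Figure D4:**
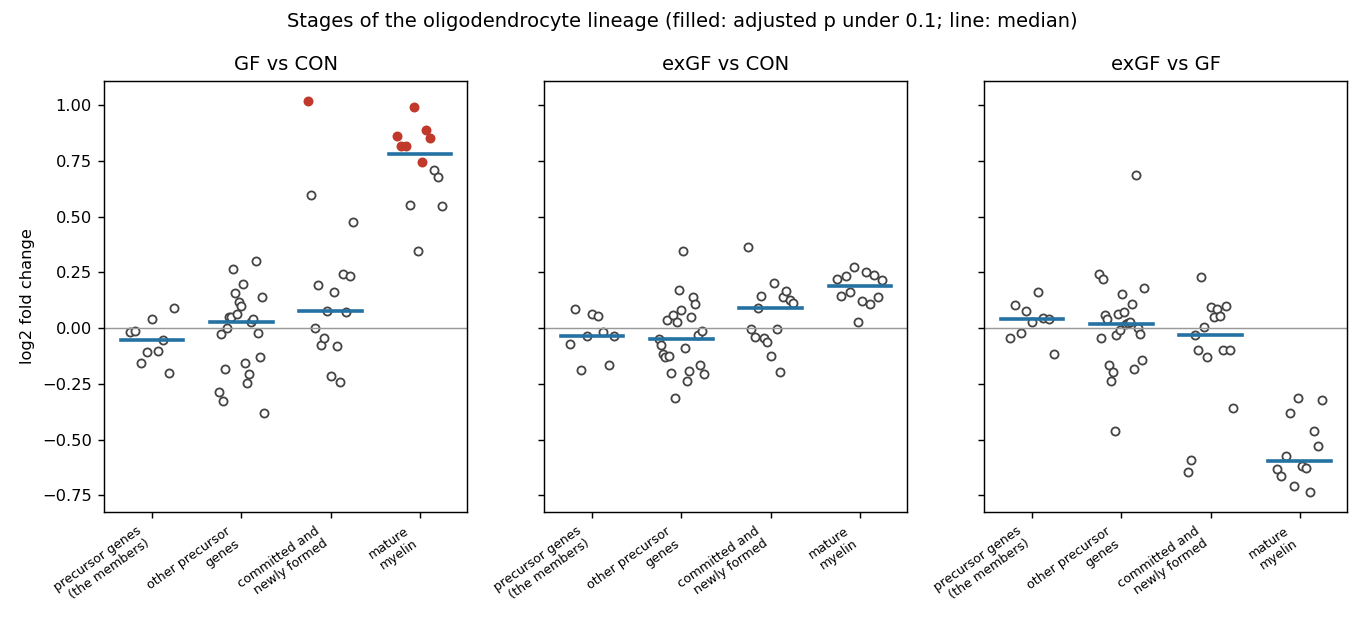
Log2 fold change (vertical axis) of each tested gene in 4 lists of the oligodendrocyte lineage, from precursor to mature myelin, for the 3 comparisons. Filled points were called at an adjusted p under 0.1 and lines are medians. In GF versus CON the medians are -0.05 for the precursor genes, 0.03 for other precursor genes, 0.08 for committed and newly formed cells and 0.78 for mature myelin.

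The pathways in which the genes act were described from lists that hold the genes themselves. All 7 genes of ligands and receptors of platelet-derived growth factor were tested, and by edgeR 0 were called and 0 had an unadjusted p under 0.05 in each comparison. The largest values were those of Pdgfrl, a receptor-like gene, at -0.66 in GF versus CON and -0.45 in exGF versus CON, followed by Pdgfc at -0.24 and -0.26. In exGF versus GF they were those of Pdgfd (-0.35) and Pdgfrl (0.22). Pdgfrl was low in every group, with means of 1.97 CPM in CON, 1.21 CPM in GF and 1.45 CPM in exGF.

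Of 27 genes of the bone morphogenetic protein pathway, 0 were called by edgeR in each comparison, and 3, 2 and 3 had an unadjusted p under 0.05 in GF versus CON, exGF versus CON and exGF versus GF. Bmp5 and Bmp6, which encode ligands, had log2 fold changes of -0.54 and -0.48 in GF versus CON. Bmp5 (-0.75) and the pseudoreceptor gene Bambi (-0.44) had the largest values in exGF versus CON. Nog, which encodes the inhibitor noggin (-0.44), and Bmp1, a protease gene that is not a true ligand (0.43), had the largest in exGF versus GF. Bmp5 was low, with means of 2.12 CPM in CON, 1.41 CPM in GF and 1.27 CPM in exGF. Bambi was low too, with 2.49 CPM in CON and 1.84 CPM in exGF.

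Of 26 genes of chondroitin sulfate proteoglycans and their partners, 13 were higher and 13 lower in every comparison, and 0 were called by edgeR. An unadjusted p under 0.05 was found for 4 in GF versus CON, 2 in exGF versus CON and 1 in exGF versus GF. Adamts4 and Adamts1, which encode proteases that cut lecticans, had log2 fold changes of 0.67 and 0.44 in GF versus CON. For Adamts4 every GF library was above every CON library, from a mean of 11.1 to 17.5 CPM, and its adjusted p was 0.154 by edgeR's quasi-likelihood test. In exGF versus GF its log2 fold change was -0.47. Dse, which encodes an enzyme of dermatan sulfate synthesis (-0.41), and the link protein gene Hapln3 (-0.30) had the largest values in exGF versus CON. Hapln3 was low, with means of 1.76 CPM in CON and 1.43 CPM in exGF.

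Of 12 genes of sialidases and ganglioside synthesis, 0 were called by edgeR in each comparison, and 0, 0 and 1 had an unadjusted p under 0.05 in the same order. Of 7 names in the LHFPL family, 5 were matched and 4 tested, and 0 were called or had an unadjusted p under 0.05 by edgeR in any comparison. Of 11 P2Y and GPR17-related receptor genes, 8 were tested in GF versus CON, 9 in exGF versus CON and 8 in exGF versus GF, and 0 were called by edgeR, with 0, 1 and 1 at an unadjusted p under 0.05.

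Cells that share these genes were read from their own markers. The 10 astrocyte markers summed to 4768 to 5214 CPM in CON, 4781 to 5293 CPM in GF and 4540 to 5054 CPM in exGF, and 0 were called by edgeR. In exGF versus CON 8 of the 10 were lower and 3 had an unadjusted p under 0.05. They were Gja1 (-0.30), Gfap (-0.32) and Gjb6 (-0.30), and for Gjb6 the groups did not overlap. In GF versus CON the same genes were lower too, at -0.19, -0.22 and -0.25, again without overlap for Gjb6. Of all 10 markers, 5 were higher and 5 lower in GF than in CON. Gja1, Gfap and Gjb6 were chosen after their values were seen. Ptprz1, Bcan and Cspg5 are shared with astrocytes, and the part of those cells in their values was not tested. The 9 pericyte markers summed to 248 to 284 CPM in CON, 254 to 267 CPM in GF and 255 to 288 CPM in exGF, and 0 were called. The 12 markers of meningeal and vascular fibroblasts were all lower in GF and in exGF than in CON, with sums of 240 to 322 CPM in CON, 164 to 213 CPM in GF and 187 to 245 CPM in exGF. Slc6a13 and Col1a2 among them were called lower in GF, with log2 fold changes of -0.94 and -0.69. Pdgfra and Vcan are transcribed in fibroblasts too, and the part of those cells in their values was not tested. Of 8 microglial markers the complement gene C1qb was called lower in GF (-0.53), and the sums were 374 to 444 CPM in CON, 329 to 370 CPM in GF and 318 to 344 CPM in exGF.

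No call was made in any of the 3 comparisons among markers of excitatory neurons (7 genes), inhibitory neurons (7), endothelium (8), striatum (7), subventricular progenitors and neuroblasts (9), choroid plexus (7 listed, 4 or 5 tested) and erythroid cells (5 listed, 4 tested) by edgeR. At an unadjusted p under 0.05, edgeR gave between 0 and 3 genes in any of these lists and any comparison.

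The levels of Ptprz1 and Cspg5 followed a property of the libraries that is not a group. For each library the median log2 deviation of the longest genes (at least 7746 exon bases, 1 of 5 groups of equal number) was taken relative to that of the shortest (at most 2515 bases). This length value ran from -0.30 in CON2 to 0.27 in CON4, from -0.13 to 0.04 in GF and from -0.13 to 0.27 in exGF. Over the 12 libraries the log2 CPM of Ptprz1, with 14245 exon bases the second longest of the 9 genes, followed it with a Pearson r of 0.85 and a Spearman rho of 0.85, and r was 0.81 without the libraries farthest from the median, CON2 and CON4. The level of Cspg5 went the other way, with r = -0.74 and rho = -0.66, and r = -0.57 without those libraries, although Cspg5 has 10074 exon bases. For the other 7 genes r lay between -0.50 (Gpr17) and 0.58 (Vcan). These values describe 12 libraries of 3 groups, the length value and the gene come from the same library, and no p is given because the genes were chosen with results known. Ptprz1 and Cspg5 are both among the longest genes, over which the length value takes a median, and their r had opposite signs. The share of other long genes with an r like that of Ptprz1 was not computed.

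**Figure D5:**
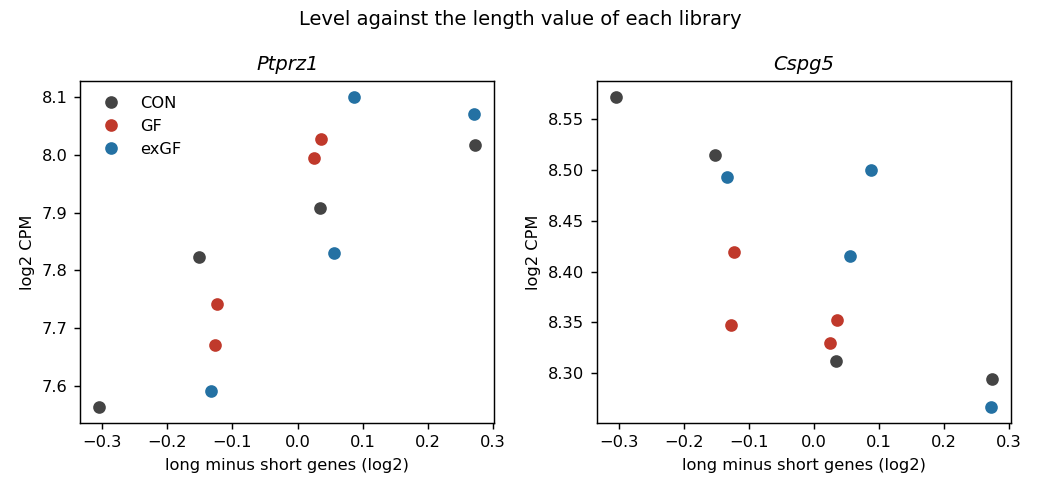
Log2 CPM (vertical axes) of Ptprz1 and Cspg5 against the length value of each library (horizontal axes), which is the median log2 deviation of the longest genes relative to the shortest, for the 12 libraries coloured by group. Ptprz1 runs upward (r = 0.85) and Cspg5 downward (r = -0.74), with the groups mixed along both.

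The 9 genes did not follow a single course among the libraries. Over the 12 libraries the 36 pairs had a Pearson r from -0.56 (Ptprz1 and Cspg5) to 0.65 (Cspg4 and Bcan), with a median of 0.08, and r was above 0 for 21 pairs and below 0 for 15. Without the 2 farthest libraries the former became -0.22 and the latter 0.49.

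The genes most like each of the 9 were found among 14179 genes by the Pearson r of log2 CPM over 12 libraries after group means were taken out. They were Nyap2 for Pdgfra (0.94), Crat for Gpr17 (0.94), Safb2 for Cspg4 (0.97), Ankrd33b for Vcan (0.95), Col9a3 for Bcan (0.96), Lsm4 for Cspg5 (0.95), Pde4d for Ptprz1 (0.97), Ephb4 for Bmp4 (0.92) and Metrn for Neu4 (0.92). None of these is among the 9 genes. The next in order were 4930570G19Rik and Khdrbs2 for Pdgfra, Cacng5 for Gpr17, Wdr62 and Phka2 for Cspg4, Grin3a and Arhgef28 for Vcan, and Asphd2 and Klc4 for Bcan. For Cspg5 they were Snord104 and Gpx8, for Ptprz1 Prrg3 and F13a1, for Bmp4 Sertad4 and Prokr2, and for Neu4 Matn4 and Tom1. Matn4 (r = 0.89) was the only one of those named here that is on the list of further precursor genes. The 3 genes nearest to Cspg5 have 70 to 1048 exon bases and those nearest to Ptprz1 6087 to 12006, and all points share the library and its depth. Each named r is among the highest of 14179 values over only 12 libraries, where unrelated genes can also reach a high r. How high they would reach was not tested, so the named genes are a description and no evidence of shared control.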

How the data were processed

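PFC tissue of 12 libraries (4 CON, 4 GF, 4 exGF) was sequenced as read pairs from a stranded polyA preparation. According to the study's methods and the submitters' processing notes, the authors trimmed reads with Trimmomatic 0.32, aligned them to GRCm38.p3 with STAR, counted pairs on Ensembl genes with HTSeq 0.6.0 without regard to strand, and deposited raw counts. The 5 summary rows of the deposited counts were left out of library sizes and tests. They held 4.57% to 7.31% of pairs outside genes, 1.10% to 1.32% ambiguous pairs and 13.0% to 19.2% pairs with several alignments. Depth ran from 13280926 to 29134760 counts on genes.

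The 3 pairs of groups were fitted separately with edgeR 4.0.16 (R 4.3.3), using the default filterByExpr filter, TMM factors and the quasi-likelihood test, and p-values were adjusted by Benjamini-Hochberg over all tested genes. The study's methods used DESeq2 for the same comparisons, so DESeq2 1.42.0 was an alternative beside limma-voom (limma 3.58.1). CPM and RPKM used TMM over 12 libraries, log2 CPM a prior count of 1, and RPKM the union of exons. Names, positions and exon lengths came from a GENCODE annotation of GRCm38, which named 40340 of 41388 genes. Promoters came from RefSeq on GRCm38.p6. Further alternatives were normalization by RLE or upper quartiles, a filter of 10 counts in all libraries or none, a robust fit, a joint fit of the 12 libraries, a block on the replicate number, an adjusted p under 0.05, and single libraries left out. Correcting each library for exon length and GC content with splines (5 degrees of freedom) and leaving out CON2 and GFR4 were chosen after seeing the data.

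The 10 genes and all lists (other precursor, committed and newly formed, mature myelin, PDGF, BMP, proteoglycan, sialidase, LHFPL and P2Y genes, and cell type markers) were chosen with earlier results of these data known. Called genes of a list were named first, then the 2 genes with the largest log2 fold change per list and comparison in the order of the lists, to at most 30 in all, and for each of the 9 genes the 3 with the highest Pearson r. Results of 2 single genes that this rule would name are not reported here. No columns of the authors' own comparisons were used.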

Additional observations from a re-analysis of the deposited data

Results flagged for a closer look

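In 4 of 90 groups of 4 libraries, 1 library stood farther from the others than Dixon's 95% critical value allows, and chance alone gives about 1 in 20. Bcan in GF stood at 220 CPM in GF1, with the next library at 188 CPM and the lowest at 183 CPM. The summed level of the committed and newly formed oligodendrocyte genes in CON was 758 CPM in CON2, with the next at 817 CPM and the highest at 829 CPM. That of the striatal markers in CON was 409 CPM in CON2, with the next at 208 CPM. That of the choroid plexus markers in GF was 15.8 CPM in GF1, with the next at 4.72 CPM. GF1 is also the library with the fewest counts on genes (13280926).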

How the results depend on the processing

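None of the 9 genes was called in any comparison under any of the alternatives run, of which 20 gave values in GF versus CON and 19 in each of the other comparisons, nor at an adjusted p under 0.05. These numbers count 1 fit double in the comparisons with GF. Leaving out CON2 and GFR4 is the same fit as leaving out CON2 in GF versus CON, and as leaving out GFR4 in exGF versus GF. An unadjusted p under 0.05 was reached by Gpr17 in exGF versus CON with the length and GC correction and without GFR4, and by Bcan in exGF versus GF without GF1 and without GFR1. DESeq2 fitted to all 12 libraries gave an adjusted p for 5 of the 9 genes in exGF versus GF. The smallest adjusted p of any of the genes was 0.575 in GF versus CON, 0.608 in exGF versus CON and 0.278 in exGF versus GF. With the replicate block, 0 of the 9 genes and 51 genes in all were called in GF versus CON, against 39. The same-numbered CON and GF libraries correlated between -0.08 and 0.09, so the numbers were not taken to pair samples, and no block was possible with the unmatched exGF numbers. Over all genes the number called went to 221 without a filter and 195 by DESeq2 on 2 groups in GF versus CON, and to 48 and 52 in exGF versus CON, against 11.

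Signs of some values changed. With the correction for length and GC content, chosen after seeing the data, the median of the genes in exGF versus GF was -0.033, and the log2 fold change was 0.0023 for Pdgfra and 0.087 for Cspg4 in GF versus CON, and -0.033 for Cspg4, -0.014 for Ptprz1 and -0.038 for Cspg5 in exGF versus GF. Without CON2 and GFR4, also chosen after seeing the data, it was 0.026 for Cspg4 and -0.039 for Ptprz1 in GF versus CON, 0.027 for Cspg5 and 0.18 for Neu4 in exGF versus CON, and -0.034 for Bmp4 in exGF versus GF. The cause was not tested.

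With each library left out in turn, log2 fold changes in GF versus CON ran from -0.083 to 0.046 for Pdgfra, -0.11 to 0.068 for Cspg4 and -0.039 to 0.11 for Ptprz1. In exGF versus CON they ran from -0.0044 to 0.20 for Cspg4, -0.089 to 0.032 for Vcan, -0.013 to 0.17 for Ptprz1, -0.020 to 0.16 for Bcan, -0.064 to 0.042 for Cspg5 and -0.095 to 0.12 for Neu4. In exGF versus GF they ran from -0.093 to 0.019 for Pdgfra, -0.10 to 0.031 for Gpr17, -0.037 to 0.12 for Ptprz1 and -0.036 to 0.24 for Bmp4. The 95% intervals, set by the spread between 4 pools a group, limit what these data can show, and for Bmp4 the depth does too.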
